A study of Mus musculus with 6 samples.

Results

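The 10 genes examined here in muscle stem cells (MuSCs) encode promoter-binding transcription factors, namely the NF-Y subunits Nfya, Nfyb and Nfyc, the Sp factors Sp1, Sp3 and Sp4, and the Krüppel-like factors Klf2, Klf4, Klf6 and Klf9. Their accessible regions were chosen by name and position and not by their values. A region counted if the table assigned it to the symbol of one of the 10 genes, which gave 24 regions, or if it had no gene in the table but lay inside the body of one of them, which added 4. Together these were 28 of the 75412 regions in the table, and all 28 passed the minimum mean value of 10.

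The regions came from ATAC-seq. In this assay Tn5 cuts open chromatin and leaves adapters there, so that more reads in a region (a peak) mean more accessible DNA. The libraries were made from 50000 freshly isolated MuSCs each, 3 from control and 3 from Taf4a sKO mice of the C57BL/6 strain. In Taf4a sKO mice, tamoxifen given to adults activates a CreERT recombinase driven by Pax7, a gene active in MuSCs, which removes exons 11 and 12 of the floxed Taf4a gene. According to the study's methods, control animals were littermates with the floxed gene but no active recombinase, and some animals carried a Pax7 zsGreen reporter as well. MuSCs were enriched by depletion of SCA1, CD45 and CD31 positive cells and sorted on integrin alpha 7 or GFP, and whether cells of several animals were pooled is not given in the sources used here. In a bulk library of this kind, fewer cells with an open region and a less open region in each cell cannot be told apart.

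NF-Y is a trimer of NFYA, NFYB and NFYC that binds the CCAAT box of many promoters. NFYB and NFYC carry the histone fold and NFYA reads the DNA sequence. Sp factors bind GC boxes and Krüppel-like factors bind the related CACCC and GC boxes through 3 zinc fingers, and Sp1 is a textbook partner of TAF4, a subunit of the general transcription factor TFIID. Klf4 is one of the reprogramming factors, Klf2 is known from quiescent T cells and endothelium, Klf6 is induced early after tissue injury, and Klf9 responds to glucocorticoids and thyroid hormone.

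The promoters of these genes themselves contain CCAAT and GC boxes. The RefSeq promoter table (250 bases before to 50 after a transcript start, assembly GRCm38.p6) held 15 windows of 300 bases for the 10 genes. CCAAT was present on either strand in 8 of them, from 7 genes, and in 37.4% of all 32851 windows in the table. The GC box core GGGCGG was present on either strand in 11 windows, from 9 genes, and in 35.7% of all windows, and CACCC in 9 windows, from 8 genes, and in 57.5% of all. One Nfyc window held 5 CCAAT, the Klf6 window 4 and the Sp1 window 3 together with 4 GGGCGG, whereas the Nfyb, Klf2 and Klf4 windows held none of the former and 3, 2 and 4 of the latter. The stretches below are the parts of 4 of these windows that overlap no annotated exon, 5′ to 3′ on the strand of the gene, with CCAAT (or ATTGG) and GGGCGG (or CCGCCC) in capitals. They were chosen to show a stretch with GC boxes alone (Nfyb, chr10:82764152-82764391, minus strand), with CCAAT boxes alone (Nfyc, chr4:120825248-120825459, minus strand) and with both (Sp1, chr15:102406184-102406315, and Klf6, chr13:5861239-5861481, both plus strand). A different Nfyc window in the same accessible region held 1 GGGCGG and no CCAAT. In the Sp1 stretch a CCAAT box and a GC box share 2 bases.
Nfyb promoter: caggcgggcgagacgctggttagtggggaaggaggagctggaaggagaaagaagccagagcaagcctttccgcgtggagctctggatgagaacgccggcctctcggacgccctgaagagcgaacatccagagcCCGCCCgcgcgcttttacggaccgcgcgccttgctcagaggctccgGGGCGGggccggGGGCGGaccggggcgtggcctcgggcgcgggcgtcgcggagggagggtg
Nfyc promoter: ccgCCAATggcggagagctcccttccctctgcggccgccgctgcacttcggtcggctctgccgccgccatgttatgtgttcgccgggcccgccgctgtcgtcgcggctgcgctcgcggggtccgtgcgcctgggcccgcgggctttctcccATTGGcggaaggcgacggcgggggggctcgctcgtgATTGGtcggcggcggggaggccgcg
Sp1 promoter: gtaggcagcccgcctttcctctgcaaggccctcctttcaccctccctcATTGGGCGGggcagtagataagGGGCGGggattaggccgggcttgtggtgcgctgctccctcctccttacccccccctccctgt
Klf6 promoter: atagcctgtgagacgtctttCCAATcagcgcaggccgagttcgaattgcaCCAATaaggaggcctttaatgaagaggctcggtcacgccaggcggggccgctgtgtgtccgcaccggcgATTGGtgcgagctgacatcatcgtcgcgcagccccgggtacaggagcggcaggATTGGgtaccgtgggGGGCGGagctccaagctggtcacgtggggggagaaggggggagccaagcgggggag

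At the deposited scaling, the regions that passed the test between genotypes were not the promoter regions but other regions of Klf4, Klf6 and Klf9. The next stretches are from 4 of them, on the plus strand of GRCm38.p6, with the sites CCAAT and CACCC and the AP-1 site TGANTCA (searched after the values had been seen) in capitals wherever they occurred on either strand. They are the last 300 bases of the region downstream of Klf4 (chr4:55526155-55526454), both intronic regions of Klf6 that were higher in Taf4a sKO MuSCs (chr13:5864306-5864585 and chr13:5866213-5866457), and the central 300 bases of the intronic region of Klf9 (chr19:23150831-23151130). TGANTCA occurred in 22.0%, CCAAT in 32.2% and CACCC in 56.4% of the central 300 bases of all regions in the table. The Klf4 stretch held 1 TGANTCA that overlaps a CACCC by 2 bases, the Klf9 stretch held 2 TGANTCA with a CCAAT between them, and neither Klf6 stretch held one. The last 300 bases of the Klf4 region are shown because they hold these letters, and its central 300 bases held neither TGANTCA nor CACCC. In the central 300 bases (or the whole of shorter ones) of the 7 regions that passed the test, TGANTCA occurred in the Klf9 region alone. None of the 4 stretches held GGGCGG.
Klf4 downstream: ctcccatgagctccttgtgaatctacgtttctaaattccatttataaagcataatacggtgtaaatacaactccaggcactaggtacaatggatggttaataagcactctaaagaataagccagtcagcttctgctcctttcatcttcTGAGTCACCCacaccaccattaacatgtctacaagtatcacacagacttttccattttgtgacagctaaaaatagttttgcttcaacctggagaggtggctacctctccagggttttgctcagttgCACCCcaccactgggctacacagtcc
Klf6 intron, 2964 bp after the start: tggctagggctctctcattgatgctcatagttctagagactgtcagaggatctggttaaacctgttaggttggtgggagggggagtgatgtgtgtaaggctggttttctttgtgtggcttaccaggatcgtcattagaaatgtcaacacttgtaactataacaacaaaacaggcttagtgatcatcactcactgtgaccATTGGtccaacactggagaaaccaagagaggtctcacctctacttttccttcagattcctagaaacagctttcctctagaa
Klf6 intron, 4853 bp after the start: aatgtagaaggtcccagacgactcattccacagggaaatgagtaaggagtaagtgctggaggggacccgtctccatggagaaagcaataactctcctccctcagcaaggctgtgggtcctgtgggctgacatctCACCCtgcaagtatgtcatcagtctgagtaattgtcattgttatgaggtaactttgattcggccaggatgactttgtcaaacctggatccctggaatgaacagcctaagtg
Klf9 intron: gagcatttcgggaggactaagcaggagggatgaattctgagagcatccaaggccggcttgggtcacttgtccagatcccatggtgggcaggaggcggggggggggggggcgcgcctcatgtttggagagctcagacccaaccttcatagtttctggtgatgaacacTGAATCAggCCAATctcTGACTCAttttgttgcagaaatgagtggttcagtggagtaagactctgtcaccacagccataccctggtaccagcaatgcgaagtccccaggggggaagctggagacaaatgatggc

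Before the members, the labels and the libraries were examined. Values are read counts per region that the authors normalized for sequencing depth and rounded, and they summed to 37722015, 35226223 and 42803315 in the control libraries 1 to 3 and to 44311913, 41661725 and 41948821 in the Taf4a sKO libraries 1 to 3. Control library 2 had the lowest sum and control library 3 the highest of the controls, and the controls kept that order at the promoters of all 10 genes. In Taf4 (the Taf4a gene), 1 region (chr2:179922849-179923263) overlapped the removed exons, covering exon 12 but not exon 11. It was at 65, 78 and 137 in control and at 44, 22 and 25 in Taf4a sKO, so the genotypes did not overlap (log2 change -1.58 ± 0.30 SE, limma, adjusted p = 0.00034). The fall was not limited to the removed exons, since both other regions inside the gene and away from its promoter fell as well, from 253, 249 and 302 to 140, 145 and 165 (limma, adjusted p = 0.00014) and from 132, 123 and 159 to 104, 95 and 93 (limma, adjusted p = 0.027). All 10 MuSC marker genes carried a region. Of their 34 regions 12 were higher and 3 lower, where 28.0% of all tested regions were higher and 13.9% lower. The sum of the 34 was 32422, 27391 and 33457 in control against 35747, 32835 and 33581 in Taf4a sKO. The promoter of Pax7, the transcription factor that defines MuSCs, fell from 4533, 3128 and 3729 to 3084, 2923 and 3026 (log2 change -0.32 ± 0.12 SE, limma, adjusted p = 0.030), while 4 of the 7 Pax7 regions were higher, by log2 changes of 0.43 to 1.00. A region 5548 bp from the start of Cdh15 rose from 253, 226 and 244 to 776, 745 and 737, and one at Calcr, a quiescence marker, fell from 68, 59 and 68 to 40, 32 and 25. The Calcr promoter was at 1403, 1183 and 1420 in control and at 1524, 1583 and 1597 in Taf4a sKO, without overlap but not past the threshold (log2 change 0.24, limma, adjusted p = 0.076).

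Markers of other cell types were also followed, since a sorted population can hold some of them. SCA1, CD45 and CD31 positive cells had been depleted before the sort, as described above. In these and the other lists, regions were first taken by gene symbol alone, and their counts stand against 28.0% higher and 13.9% lower of all tested regions (limma, adjusted p under 0.05). Among haematopoietic markers, Ptprc, Itgam and Cd3e had no region, either by symbol or without a gene inside their bodies, while the Csf1r region was higher and the Cd68 region lower in Taf4a sKO (sum of both 393, 457 and 604 against 590, 528 and 636). Of 12 fibro-adipogenic regions 6 were higher and 1 lower, and their sum was 6377, 5604 and 6898 in control against 9136, 8294 and 8098 in Taf4a sKO, mostly from Col1a1. The Lum promoter, for example, was gained, from 60, 56 and 54 to 160, 126 and 143. Ly6a, which defines these cells, had no region of either kind. Of 6 mural regions 4 were higher and none lower, with a sum of 3475, 3303 and 3784 against 4635, 4439 and 4467, mostly from Acta2. Rgs5 had none by symbol but 5 regions without a gene inside its body, 1 of them higher. Of 6 endothelial regions 2 were higher and 1 lower, all at Tek, and Tie1 had none of either kind. Their sum was 1895, 1668 and 2191 against 2465, 2474 and 2329, mostly from Tek. By symbol, the Pecam1, Cdh5 and Kdr regions did not pass the test, but Pecam1 had 8 regions without a gene inside its body, 6 of them higher. Of 5 Schwann cell regions 1 was higher and 1, at Sox10, lower, and of 7 myofibre regions 2 were lower. Regions without a gene inside the marker genes, counted after these values were seen, added 8 higher and 2 lower of 17 for endothelial, 7 higher and 2 lower of 16 for mural, 12 higher and 6 lower of 40 for MuSC and none of 1 for fibro-adipogenic markers, and there were none in the other marker lists. The fibro-adipogenic, mural and endothelial sums were thus higher in Taf4a sKO, as were 4 of the 6 Klf6 regions described below, and the part of these cell types in the Klf6 results was not tested.

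Across the whole table, accessibility in Taf4a sKO differed from control in both directions. Of 75384 tested regions, 21102 (28.0%) were higher and 10476 (13.9%) lower at an adjusted p under 0.05 (limma on log2 values, Benjamini-Hochberg over all regions). The median log2 change of all regions was 0.105, and it was 0.067 for the 20163 regions at an annotated start and 0.15 for the 55221 regions away from starts. Changes are therefore best read against these medians. The share of higher among all calls, 66.8%, fell to 53.0% with median-of-ratios scaling and to 49.7% with quantile normalization, which both bring the median close to 0.

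Among the 28 regions of the NF-Y, Sp and Klf genes, 6 were higher, 1 was lower and 21 did not pass the test. These are 21.4% and 3.57% of them, both below the shares for all regions. By the study's thresholds (mean above 10 and a log2 ratio of group means beyond 1), 7.03% of all regions were gained and 5.36% lost, and of the 28 none was gained and 1, downstream of Klf4, was lost. The genotypes did not overlap in 9 of the 28. All Taf4a sKO libraries were above all control libraries in 7, against 32.3% of all regions, and below them in 2, against 18.0%. All 7 regions that passed the test belonged to Klf4, Klf6 or Klf9. Without control library 3 the higher regions numbered 10 instead of 6 and 2 counted as gained, while 37.8% of all regions were then higher and 9.76% gained. The lower regions numbered 4 with median-of-ratios scaling and 6 with quantile normalization instead of 1, while 22.5% and 25.1% of all regions were then lower.

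**Figure D1:**
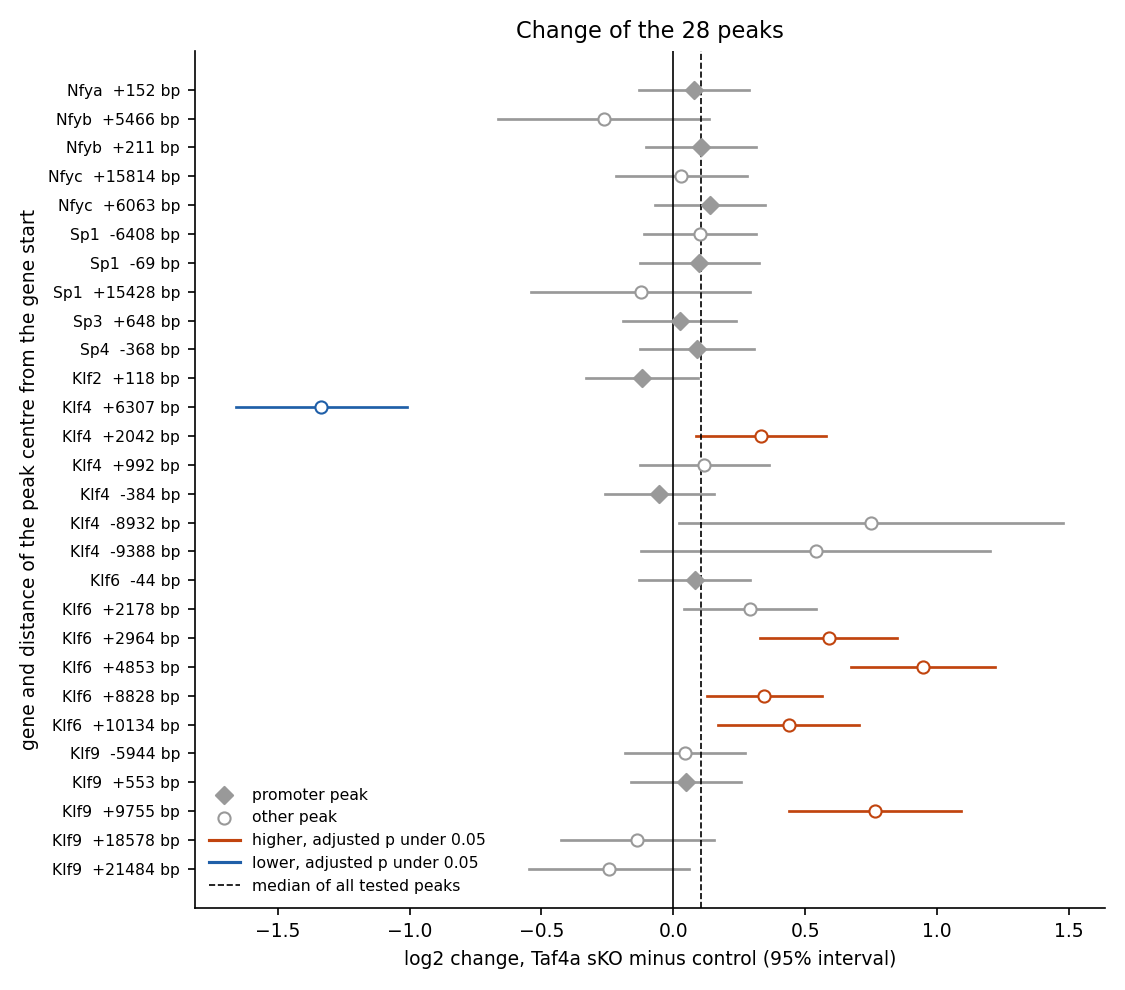
Log2 change (Taf4a sKO minus control, points) with its 95% interval (lines) of the 28 regions, named by gene and by the distance of the region's centre from the gene start. Filled diamonds are the promoter region of each gene, which all lie between -0.12 and 0.14, open circles are other regions, coloured lines passed an adjusted p of 0.05, and the dashed line is the median of all tested regions (0.105).

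The promoter region of a gene was taken as the one with the most reads among its regions within 1000 bp of an annotated start. These 10 regions, 1 per gene, had a median width of 1517 bp, against 544.5 bp for the other 18. Per 100 bp of region, the control level ran from 207 reads at Klf9 to 499 at Sp1. At the deposited scaling, none of the 10 passed the test in either direction, and none had an unadjusted p under 0.05 (limma). At annotated starts in general, 16.6% of regions were higher and 8.36% lower. The log2 changes of the 10 ran from -0.12 to 0.14 with a median of 0.08, close to the median of 0.067 for all regions at starts, and the genotypes overlapped at every one of them. The 18 other regions held all of the calls, with 6 higher and 1 lower, and had a median log2 change of 0.204. Without the 5 of Klf6 their median was 0.043, and 2 were higher and 1 lower. Not all of the 18 were far from starts. For 4 of them a start of the same gene was within 1000 bp (the second Nfyc region, the Klf4 region nearest its promoter and the Klf6 regions 2178 and 2964 bp after the start), and the upstream Klf9 region covered the start of another gene. Counted in the same way as the whole table, 15 of the 28 lay at a start, with 1 higher (6.67%) and none lower, and 13 lay away from starts, with 5 higher (38.5%) and 1 lower (7.69%) against 32.1% and 15.9% of all such regions. The 95% intervals of the promoters reached from -0.33 at Klf2 to 0.35 at Nfyc. With median-of-ratios scaling the promoters of Klf2 and Klf4 passed the test as lower. With quantile normalization those of Klf2, Klf4 and Sp3 did.

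**Figure D2:**
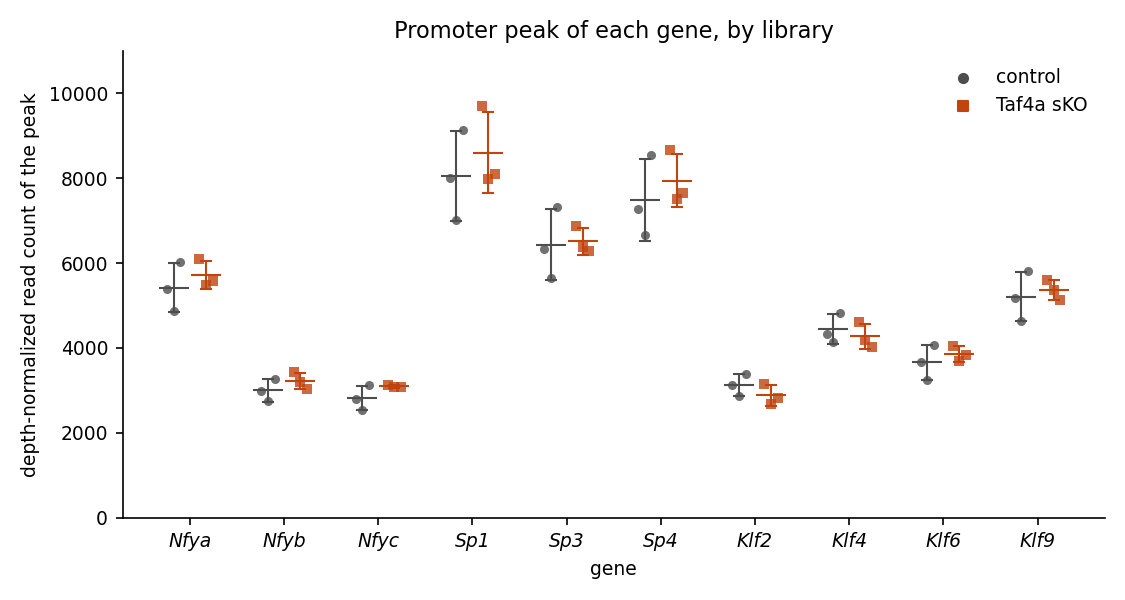
Depth-normalized read count of the promoter region of each gene (vertical axis, linear) in the 3 control (circles) and 3 Taf4a sKO libraries (squares), with the group mean and SD (bars). The genotypes overlap at every gene, and among the controls library 2 is the lowest and library 3 the highest at each.

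Of the NF-Y genes, Nfya, the subunit that reads the CCAAT sequence, had 1 region (chr17:48408962-48410546), which also covers the start of the neighbouring gene Oard1. Its values were 5392, 4861 and 6020 in control and 6089, 5488 and 5566 in Taf4a sKO. The lowest value was a control, but the control with 6020 lay above 2 of the Taf4a sKO libraries (log2 change 0.08 ± 0.10 SE, 95% interval -0.13 to 0.29, limma, adjusted p = 0.57).

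Nfyb, a histone-fold subunit, had a promoter region (chr10:82763304-82764562) with 2980, 2751 and 3279 in control and 3426, 3197 and 3044 in Taf4a sKO, which overlapped (log2 change 0.10 ± 0.10 SE, limma, adjusted p = 0.44). Its smaller intronic region (chr10:82758413-82758943) was at 110, 163 and 163 in control and at 150, 110 and 102 in Taf4a sKO. Here 2 of the 3 Taf4a sKO values were at or below the lowest control, with a log2 change of -0.26 ± 0.19 SE that did not pass the test (limma, adjusted p = 0.29).

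Nfyc, the partner of Nfyb in the histone-fold dimer, starts from several promoters. The region over several of its annotated starts (chr4:120824877-120826141), which holds the CCAAT boxes shown above, was at 2795, 2543 and 3128 in control and at 3135, 3080 and 3082 in Taf4a sKO. This was the highest change among the 10 promoters, 0.14 on the log2 scale ± 0.10 SE, and it did not pass the test (limma, adjusted p = 0.28), except when control library 3 was left out (limma, adjusted p = 0.022). A second region inside the gene body, without a gene in the table and at another annotated start (chr4:120815362-120816155), was at 529, 537 and 617 against 551, 582 and 583, a log2 change of 0.03 ± 0.12 SE (limma, adjusted p = 0.86).

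Of the Sp genes, Sp1, the GC box factor of many housekeeping promoters, had 3 regions. Its promoter (chr15:102405269-102406879) was at 7994, 7018 and 9128 in control and at 9710, 7991 and 8109 in Taf4a sKO, with a log2 change of 0.10 ± 0.11 SE (limma, adjusted p = 0.50). An upstream region centred at -6408 bp from the start (chr15:102399271-102400200) was at 1912, 1697 and 1865 against 2127, 1931 and 1818, and an intronic region without a gene in the table (chr15:102421361-102421780) was at 81 in each control and at 61, 79 and 85 in Taf4a sKO. None of the 3 passed the test (limma, adjusted p of 0.46 and 0.66 for the latter 2), and the genotypes overlapped in each.

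Sp3 and Sp4, close relatives of Sp1 that bind the same boxes, each had a single region, at the promoter. The Sp3 region (chr2:72978560-72981035), which also covers the start of the antisense gene Sp3os, was at 6323, 5653 and 7332 in control and at 6878, 6384 and 6285 in Taf4a sKO (log2 change 0.03 ± 0.10 SE, limma, adjusted p = 0.87). The Sp4 region (chr12:118300922-118302694) was at 7262, 6657 and 8543 against 8670, 7512 and 7646 (log2 change 0.09 ± 0.11 SE, limma, adjusted p = 0.53). With quantile normalization the Sp3 change was -0.06 and passed the test (limma, adjusted p = 0.042). In both genes, control library 2 was lowest and control library 3 lay within or above the Taf4a sKO values.

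The 4 Klf genes had 18 regions and all 7 that passed the test. Of the 18, 33.3% were higher and 5.56% lower, against 28.0% and 13.9% of all tested regions. Klf2 had only its promoter (chr8:72318476-72319825), at 3127, 2868 and 3391 in control and at 3146, 2671 and 2831 in Taf4a sKO. It was the lowest of the 10 promoters in log2 change, -0.12 ± 0.10 SE, and did not pass the test (limma, adjusted p = 0.38). This call depends on the scaling: with median-of-ratios scaling the log2 change was -0.23 (limma, adjusted p = 0.0011) and with quantile normalization -0.23 (limma, adjusted p = 0.00029), both past the threshold.

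Klf4, on the minus strand of chromosome 4, had 6 regions, and the one downstream of the gene, 6307 bp after the start (chr4:55525864-55526454), was the only lost region of the 28. Its values were 243, 233 and 239 in control and 97, 95 and 90 in Taf4a sKO. The libraries of each genotype lay close together, at 238 ± 5.0 (SD, n = 3) and 94.0 ± 3.6 (SD, n = 3), and the genotypes were far apart, so accessibility in Taf4a sKO was 0.394 of control (log2 change -1.33 ± 0.16 SE, limma, adjusted p = 5.9e-07). It was at the 3.0 percentile of log2 change of all tested regions, and leaving out any 1 library kept the log2 change between -1.36 and -1.30.

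The promoter of Klf4 (chr4:55532161-55533540) was at 4332, 4147 and 4831 in control and at 4602, 4192 and 4031 in Taf4a sKO, with a log2 change of -0.05 ± 0.10 SE (limma, adjusted p = 0.70). As for Klf2, the promoter passed the test under other scalings, at -0.17 with median-of-ratios scaling (limma, adjusted p = 0.0030) and -0.15 with quantile normalization (limma, adjusted p = 0.0019). A region over the coding sequence (chr4:55530222-55530627) changed the other way, from 568, 499 and 606 to 698, 703 and 701, a log2 change of 0.33 ± 0.12 SE with no overlap (limma, adjusted p = 0.027). That call was lost when either control library 1 or 2 or any of the Taf4a sKO libraries was left out (adjusted p up to 0.11), and with quantile normalization (log2 change 0.11, limma, adjusted p = 0.26).

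The remaining Klf4 regions did not pass the test at the deposited scaling with all libraries. The one nearest the promoter (chr4:55531152-55531797) was at 627, 599 and 735 in control and at 697, 739 and 684 in Taf4a sKO. Far upstream were a pair of faint regions (chr4:55541293-55541504 and chr4:55541756-55541952). The former was at 14, 17 and 41 against 37, 42 and 32, and the latter at 21, 25 and 51 against 35, 42 and 58. In both, control library 3 stood apart from the other controls and lay among the Taf4a sKO values, and without it the log2 changes were 1.20 and 0.91 and passed the test (limma, adjusted p = 0.0043 and 0.016) against 0.75 and 0.54 with it (limma, adjusted p = 0.093 and 0.19). The former also passed with quantile normalization (log2 change 0.94, limma, adjusted p = 0.045).

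**Figure D3:**
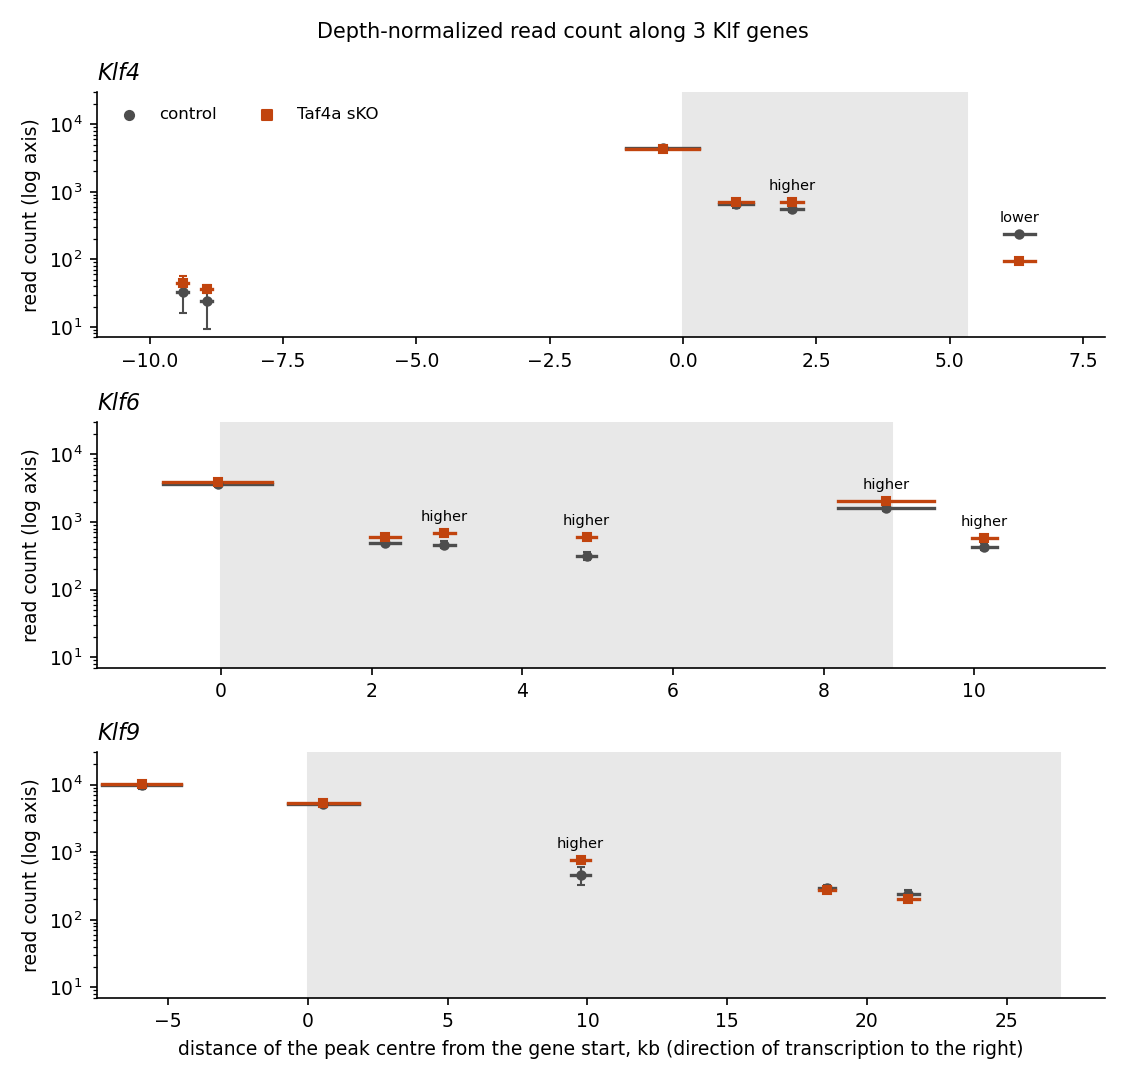
Mean depth-normalized read count with SD (points and bars, log axis) of each region of Klf4, Klf6 and Klf9 in control (grey circles) and Taf4a sKO (orange squares) against the distance from the gene start in kb, with horizontal lines as wide as the region and the gene body shaded. The promoter regions of the 3 genes lie close together between genotypes, the regions marked higher or lower passed an adjusted p of 0.05, and the Klf4 region beyond the gene end falls from 238 to 94.0.

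Klf6, a factor that is induced early in injured tissue, had the most regions that rose: 4 of 6. Of all tested regions 28.0% were higher, and of those away from starts 32.1%. They lie inside and just after the gene on chromosome 13. The largest rise was at an intronic region 4853 bp after the start (chr13:5866213-5866457), from 278, 307 and 366 in control to 598, 604 and 622 in Taf4a sKO. Every Taf4a sKO value was far above every control, and accessibility went from 317 ± 44.8 (SD, n = 3) to 608 ± 12.5 (SD, n = 3), 1.92 times as high (log2 change 0.95 ± 0.13 SE, limma, adjusted p = 5.6e-06). It was at the 91.5 percentile of log2 change of all tested regions.

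The neighbouring intronic region 2964 bp after the start (chr13:5864306-5864585), 93 bp from the start of a shorter annotated Klf6 transcript, rose from 439, 422 and 528 to 749, 671 and 664 (log2 change 0.59 ± 0.13 SE, limma, adjusted p = 0.00062). A wide region over the 3′ end of the gene (chr13:5869670-5870949) rose from 1641, 1447 and 1706 to 2198, 1961 and 1926 (log2 change 0.345 ± 0.105 SE, limma, adjusted p = 0.010). The region just downstream (chr13:5871453-5871778) rose from 396, 411 and 494 to 563, 628 and 565 (log2 change 0.44 ± 0.13 SE, limma, adjusted p = 0.0084). In each of the 3 the lowest Taf4a sKO library was above the highest control. The wide region lost its call without Taf4a sKO library 1 (adjusted p = 0.080) and the downstream one without Taf4a sKO library 2 (adjusted p = 0.052) and with quantile normalization (adjusted p = 0.084).

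The region 2178 bp after the Klf6 start (chr13:5863467-5863854) was at 481, 467 and 499 in control and at 594, 625 and 552 in Taf4a sKO, again without overlap, but missed the threshold (0.05) (log2 change 0.29 ± 0.12 SE, limma, adjusted p = 0.058), which it passed without control library 3 (limma, adjusted p = 0.013). In contrast, the Klf6 promoter (chr13:5860714-5862162), with its 4 CCAAT boxes, was at 3673, 3250 and 4059 in control and at 4054, 3698 and 3826 in Taf4a sKO, and the genotypes overlapped (log2 change 0.08 ± 0.10 SE, limma, adjusted p = 0.56).

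Klf9, which responds to glucocorticoids, had 5 regions on chromosome 19, of which 1 rose. This was an intronic region 9755 bp after the start (chr19:23150652-23151310), at 370, 404 and 616 in control and at 740, 804 and 761 in Taf4a sKO. Control library 3 was again above the other controls, yet below every Taf4a sKO library, and the group values were 463 ± 133.3 (SD, n = 3) and 768 ± 32.6 (SD, n = 3) with a log2 change of 0.765 ± 0.16 SE (limma, adjusted p = 0.00068). With 1 library left out the change ranged from 0.62 to 0.99 (without control library 3) and passed the test each time (limma, adjusted p up to 0.012).

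The other Klf9 regions did not pass the test. Its promoter (chr19:23140520-23143038) was at 5167, 4647 and 5814 in control and at 5601, 5369 and 5134 in Taf4a sKO. The widest of the 28 regions lay upstream (chr19:23133871-23136693), at the start of the gene 2410080I02Rik, and was at 9668, 8761 and 11507 against 11575, 9744 and 9456. Both overlapped, with log2 changes of 0.05 and 0.04 (limma, adjusted p = 0.73 and 0.78).

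Within the Klf9 gene body lay 2 regions that the table assigned to no gene. The one 18578 bp after the start (chr19:23159525-23160082) was at 311, 266 and 323 in control and at 273, 269 and 274 in Taf4a sKO, and the one 21484 bp after it (chr19:23162335-23163086) was at 218, 244 and 272 against 200, 211 and 206. At the latter all Taf4a sKO libraries were below the controls, though the log2 change of -0.24 ± 0.15 SE did not pass the test (limma, adjusted p = 0.20). With median-of-ratios scaling it did, at -0.36 (limma, adjusted p = 0.026), and with quantile normalization both passed, at -0.33 and -0.41 (limma, adjusted p = 0.024 and 0.012).

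**Figure D4:**
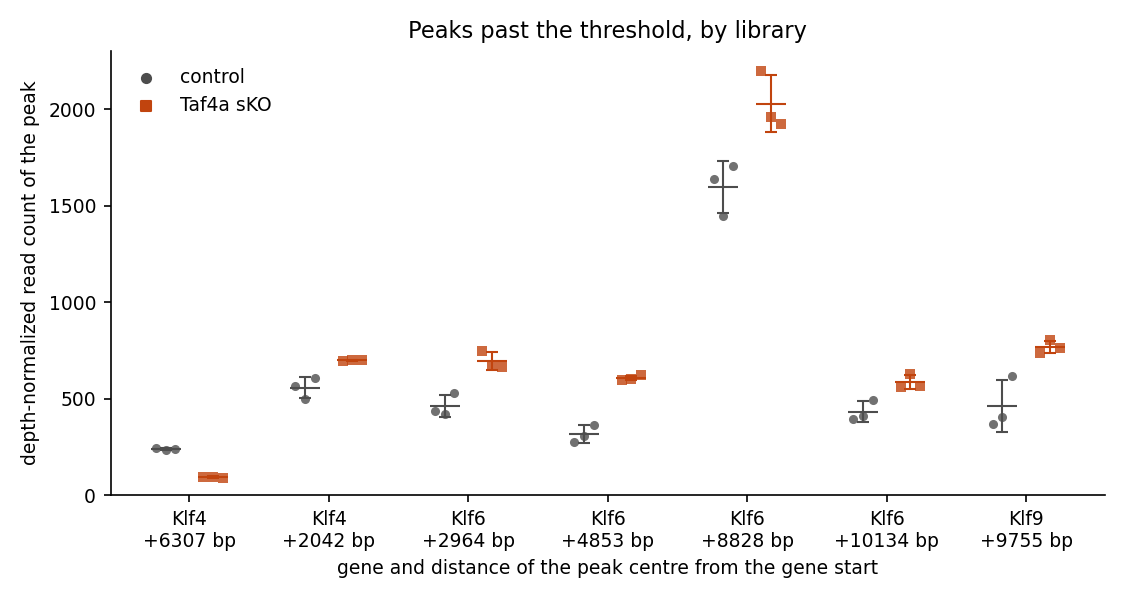
Depth-normalized read count (vertical axis, linear from 0) in each control (circles) and Taf4a sKO library (squares) of the 7 regions that passed an adjusted p of 0.05, with group mean and SD (bars), named by gene and distance from the gene start. The genotypes do not overlap in any of the 7, and at the Klf9 region the controls run from 370 to 616.

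Promoter and other regions of the same gene were then compared within each library, which cancels a single scaling factor per library but not quantile normalization. For Klf6, the mean log2 value of the other 5 regions minus that of the promoter was -2.74 ± 0.08 (SD) in the 3 controls, and the Taf4a sKO libraries had -2.30 ± 0.07 (SD, n = 3). The gap was narrower by 0.44 in Taf4a sKO with no overlap between genotypes, and p was 0.1, the lowest value that a two-sided exact permutation test of 3 against 3 allows (adjusted over 6 genes 0.3). With all Klf6 regions within 1000 bp of a start of the gene counted as promoter, the gap still differed without overlap, by 0.26 (exact permutation p = 0.1). For Nfyc the gap moved the other way, by -0.11, also with no overlap and an exact permutation p of 0.1, and by -0.22 with quantile normalization. With 1 library left out the Nfyc difference ranged from -0.145 to -0.066. For Nfyb, Sp1, Klf4 and Klf9 the genotypes overlapped, with differences of -0.37, -0.11, 0.13 and 0.06 and exact permutation p-values of 0.2 to 0.5. With 1 library left out these ranged from -0.551 to -0.212 at Nfyb, -0.197 to 0.019 at Sp1, 0.043 to 0.266 at Klf4 and 0.008 to 0.093 at Klf9. With quantile normalization they were -0.363 at Nfyb, -0.106 at Sp1, 0.18 at Klf4 and 0.016 at Klf9. At Klf4 the fall downstream and the rise over the coding sequence enter the same mean.

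Such sums were taken for the 10 genes alone, so the share of all genes without overlap was not counted. Among single regions of the whole table, all Taf4a sKO libraries were above all controls in 32.3% and below them in 18.0%. Summed over all regions of a gene at the deposited scaling, only Klf6 of the 10 genes had genotypes that did not overlap. For Klf6, the 3 controls had a sum of 6955 ± 675.2 (SD) and the 3 Taf4a sKO libraries one of 8366 ± 338.1 (SD), 20.3% higher, with an exact permutation p of 0.1 (adjusted over 10 genes 0.667), and 11.5% higher with median-of-ratios scaling. The sums of the other 9 genes overlapped at the deposited scaling, and differed by between -7.86% at Klf2 and 8.51% at Nfyc. With median-of-ratios scaling these limits became -14.7% and 0.68%, and with 1 library left out they ranged from -12.1% to -3.83% and from 3.86% to 14.7%. With median-of-ratios scaling the Klf4 sum differed by -8.67% instead of -1.42%. Under it the genotypes did not overlap for the Klf2 and Klf4 sums either (exact permutation p = 0.1 for each).

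Regions at other members of the families were taken from a list of 19 further Sp and Klf genes, of which 18 (all but Klf17) had a region. Of their 37 regions 9 were higher and 2 lower, and 1 was gained, with a median log2 change of 0.011, against 28.0% higher, 13.9% lower and 7.03% gained of all regions. Regions without a gene inside these genes added 11, with 5 higher and 1 lower. The gained one was at the promoter of Sp7, a factor of bone-forming cells, which rose from 51, 45 and 49 to 139, 136 and 157 (log2 change 1.55 ± 0.19 SE, limma, adjusted p = 9.7e-07). Regions of Klf3, a repressor, and Sp2 rose from 253, 248 and 350 to 441, 454 and 426 and from 151, 182 and 177 to 287, 230 and 268. Regions of Klf10, a TGF-beta response gene, and Sp5, a Wnt target, fell from 507, 422 and 461 to 362, 300 and 321 and from 235, 268 and 281 to 182, 207 and 168. Of the 9 higher regions 6 lay within 1000 bp of an annotated start, at Sp7, Sp8, Klf12, Klf13 and Klf15, the last with 2. These genes were named after their values were seen. Both lower regions lay away from starts. Over all tested regions, 16.6% of those at starts were higher and 8.36% lower, against 32.1% and 15.9% of those away from starts. Of the regions nearest the start, 1 for each of the 18 genes, 4 were higher and none lower. How many of the 37 regions lay at a start was not counted. Their share of higher regions at starts was therefore not compared with these values.

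Other histone-fold proteins and promoter-binding factors (16 genes such as Tbp, Nrf1 and Yy1, of which 14 had a region) showed 1 higher and 1 lower among 21 regions taken by symbol, against 28.0% and 13.9% of all regions. Regions without a gene inside these genes added 12, of which none was higher and 6 were lower, 3 of them the Taf4 regions described before. The higher one lay 3331 bp from the start of Taf4 and rose from 488, 437 and 653 to 831, 695 and 759 (log2 change 0.55 ± 0.14 SE, limma, adjusted p = 0.0030). Textbook NF-Y target genes were represented by 10 cell cycle genes such as Ccnb1 and Cdk1, with 12 regions, and by 10 chaperone and sterol synthesis genes such as Hspa5 and Hmgcs1, of which 8 had 11 regions. At the deposited scaling, none of these 23 regions passed the test in either direction (limma). Of them 2, at Plk1 and Xbp1, had an unadjusted p under 0.05 (limma), and the median log2 changes were -0.05 and -0.001. Calls for these genes under the other scalings, which changed those of the Klf2 and Klf4 promoters, were not examined. Of all regions at annotated starts 16.6% were higher and 8.36% lower, with a median of 0.067. Some of the 23, among them the Xbp1 region, lay away from starts, where 32.1% of all regions were higher and 15.9% lower.

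Finally, promoter regions of all genes were described by the motifs in their RefSeq window. Of 9637 promoter regions that covered such a window, 10.6% were higher and 4.24% lower in Taf4a sKO. Of the 3651 with a CCAAT 9.75% were higher and 2.88% lower, and of the 5986 without one 11.1% and 5.08%. Of the 6750 with GGGCGG 8.65% were higher and 3.63% lower, and of the 2887 without it 15.2% and 5.68%. Regions with both motifs had more reads, with a median value of 1849 where both were present and 986.0 where neither was. The median GC content was 65.7% with GGGCGG and 56.3% without it, but 60.7% with CCAAT and 64.3% without it. The median log2 change was between 0.058 and 0.071 in all of these classes, and all 10 promoters of the NF-Y, Sp and Klf genes, with or without CCAAT, lay in the majority that did not pass the test at the deposited scaling. With median-of-ratios scaling the promoters of Klf2 and Klf4 passed, and with quantile normalization those of Klf2, Klf4 and Sp3, all as lower.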

How the data were processed

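ATAC-seq libraries of 3 control and 3 Taf4a sKO MuSC samples were analysed. Per the labels and the study's methods, the authors trimmed reads with Trimmomatic 0.39, aligned them with STAR 2.7.11b to mm10, removed duplicates with Picard 3.1.1 and also spliced, multi-mapping, ribosomal and mitochondrial reads, made peak calls per sample with MACS and no input, unified them and counted reads with featureCounts. A shift of reads for Tn5 is not described. The deposited values are a score, namely these read counts normalized for depth by the authors and rounded, so no count model was run and raw counts per region were not analysed here. No column of sample values was left unused.

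Starting from these values, limma 3.58.1 (R 4.3.3, mean-variance trend, robust) was fitted to log2(value + 1) over all regions with a mean above 10, with Benjamini-Hochberg adjustment over all of them. A log2 change is thus on the scale with a pseudocount of 1 and understates the change of low values. Single values were compared by two-sided exact permutation tests (SciPy 1.17.1), which cannot go below 0.1. The promoter region of a gene is the one with the most reads among those within 1000 bp of any GENCODE vM21 start of the gene, and regions at starts in the whole table are those within 1000 bp of a start of any gene. All 10 genes matched that annotation. Promoter sequences are from RefSeq, and peak sequences were read from GRCm38.p6 with pysam 0.24.0. The genes, the further lists (other Sp and Klf genes, other promoter factors, NF-Y targets and cell type markers) and the tests were chosen with earlier results of these data known. All regions of the 10 genes are named, and of each further list up to 3 called rises and falls without overlap plus markers.

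Replicates are separate samples in the labels, but nothing there gives the animals behind each, so p-values measure the spread between these samples. Alternatives covered scaling, pseudocount, minimum mean, thresholds, the choice of regions, a replicate block and each replicate left out in turn.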

Additional observations from a re-analysis of the deposited data

How the results depend on the processing

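With 3 libraries per genotype and rounded values, precision is limited, and scaling between libraries was the choice that moved most results. Lower regions of the 10 genes numbered 4 instead of 1 with median-of-ratios scaling and 6 with quantile normalization, and of all tested regions 16945 and 18897 were lower, where either scaling brings the median change close to 0. With regions without a gene up to 10 kb outside the genes added, 2 were lower, the second being past the end of Klf9 (36, 34 and 65 against 14, 15 and 18). With all regions within 1000 bp of a start of the gene as promoter, chosen after seeing the data, the difference between other and promoter regions was 0.04 for Klf4 instead of 0.134 and 0.256 for Klf6 instead of 0.44, and for Nfyc no other region was left. At a threshold of 1.5-fold 3 regions counted as gained, as did 19.4% of all regions. Leaving out 1 library gave 4 to 10 higher regions (10 without control library 3) and 1 lower, 0 to 2 gained and 1 lost, and 16024 to 28502 higher and 8565 to 10038 lower regions in the whole table. Of the 7 calls, 5 kept direction and threshold with quantile normalization and all 7 with median-of-ratios scaling, a pseudocount of 8, a minimum mean of 50, no minimum or the replicate block, and 5 to 7 with 1 library left out.

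Values near 0 changed sign, none of them past the threshold to begin with. With median-of-ratios scaling the log2 changes became -0.034 at the promoter of Nfya, -0.009 at that of Nfyb, -0.014 at that of Sp1, -0.088 at that of Sp3, -0.023 at that of Sp4, -0.032 at that of Klf6 and -0.065 at that of Klf9, and -0.082, -0.012 and -0.07 at the second Nfyc region and the upstream regions of Sp1 and Klf9. With quantile normalization they became -0.006 at the promoter of Nfya, -0.01 at Nfyb, -0.061 at Sp3 (adjusted p = 0.042), -0.024 at Klf6 and -0.047 at Klf9, and -0.195, -0.04 and -0.103 at the second Nfyc region, the upstream Sp1 region and the Klf4 region nearest its promoter. The summed values became -2.32% for Nfya, -1.66% for Nfyb, -0.94% for Sp1, -5.97% for Sp3, -1.54% for Sp4 and -3.27% for Klf9 with median-of-ratios scaling.

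With 1 library left out, log2 changes ranged from -0.107 to 0.01 at the Klf4 promoter, from -0.002 to 0.159 at the Klf6 promoter, from -0.065 to 0.123 at Sp3, from -0.031 to 0.131 at the Klf9 promoter, from -0.047 to 0.151 upstream of Klf9, from -0.01 to 0.101 at the second Nfyc region and from -0.219 to 0.017 at the intronic Sp1 region. At promoters that kept their sign the ranges were 0.003 to 0.157 at Nfya, 0.042 to 0.169 at Nfyb and 0.068 to 0.217 at Nfyc. They were 0.005 to 0.194 at Sp1, 0.009 to 0.189 at Sp4 and -0.183 to -0.058 at Klf2. The intronic Nfyb region ranged from -0.451 to -0.153 and the upstream Sp1 region from 0.04 to 0.153. The Klf4 region nearest its promoter ranged from 0.057 to 0.204. The summed values ranged from -4.57% to 8.81% for Sp3, from -4.8% to 3.46% for Klf4 and from -1.52% to 12.27% for Klf9, and the Sp1 difference between other and promoter regions from -0.197 to 0.019. Without control library 3, which also left 2 faint regions upstream of Klf4 past the threshold, the Klf6 region 2178 bp after the start (adjusted p = 0.013) and the Nfyc promoter (adjusted p = 0.022) passed the test. The replicate numbers did not pair the samples (correlations of same-numbered deviations 0.11, -0.118 and -0.029), and with a replicate block 6 regions were higher and 1 lower. The cause of these shifts, beyond the scaling itself, was not tested.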
